A study of Homo sapiens with 12 samples.

Results

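The genes described here are 57 genes of G2 and mitosis, the phases in which a cell prepares to divide and then separates its copied chromosomes. They were chosen by symbol from a list of mitosis and G2/M genes, without a threshold on any measured value. The choice was made with earlier results of these data known, so the list is not independent of them. Each of the 57 symbols matched 1 row of the deposited table, which held 56227 rows. By role they comprised 9 genes of mitotic entry and cyclin-CDK activity, 6 of the spindle checkpoint, 9 kinesins, 10 of the centromere and kinetochore, 4 of the chromosomal passenger complex, 6 of chromosome structure, 7 of spindle assembly, 3 of cytokinesis and 3 of the anaphase-promoting complex/cyclosome (APC/C) ubiquitin pathway.

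RNA was sequenced from HT1080, an established human fibrosarcoma cell line that carries a mutant NRAS gene, and every group came from this 1 line. There were 12 libraries in 4 groups of 3: siNC (control siRNA) with DMSO, siNC with poly(dA:dT), siQ61K (siRNA against mutant NRAS) with DMSO, and siQ61K with poly(dA:dT). Poly(dA:dT) is a synthetic double-stranded DNA that cells sense as foreign DNA in the cytosol, and the stated purpose of the series was to ask how interferon-alpha response genes behave when mutant NRAS is lowered. No label gives the dose, the time after siRNA or whether the 3 libraries of a group were separate cultures. The p-values therefore rest on differences between libraries that could be technical.

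Entry into mitosis is driven by CDK1 bound to a B-type cyclin, whose activity is released by CDC25 phosphatases and amplified by PLK1 and the Aurora kinases. Chromosomes are then condensed, attached through kinetochores to spindle microtubules, and held under the spindle checkpoint until every kinetochore is attached, after which CDC20 activates the APC/C and the sister chromatids part. Most of these genes are transcribed together late in the cell cycle, through promoters with CCAAT boxes bound by NF-Y and a cell cycle genes homology region (CHR), which the MuvB complex binds with B-MYB and FOXM1 in cycling cells and with repressors in resting cells.

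Promoter sequence was printed for 6 of the genes because the members moved together. Of these 6, 5 show arrangements of both elements and CCNB1 shows paired CCAAT boxes without TTTGAA. They were picked as genes named often here, not to represent the members, of whose 57 windows 30 held both elements. Other named genes differed: AURKB had CCAAT without TTTGAA, and BUB1B and ANLN had TTTGAA without CCAAT. The RefSeq promoter table on GRCh38.p14, with windows of 250 bases before to 50 bases after an annotated start, held 57 windows for 47 of the 57 genes. AURKA, FOXM1, BUB3, TTK, KNL1, BIRC5, CDCA2, TPX2, RACGAP1 and UBE2C had no window there. The 130 bases before the start are given 5′ to 3′ on the strand of the gene, and capitals mark TTTGAA (the CHR core) and CCAAT, or their reverse complements TTCAAA and ATTGG.
CCNB1: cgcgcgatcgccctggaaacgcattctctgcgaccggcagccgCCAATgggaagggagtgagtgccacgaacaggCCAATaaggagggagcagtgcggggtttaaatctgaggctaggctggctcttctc
CDK1: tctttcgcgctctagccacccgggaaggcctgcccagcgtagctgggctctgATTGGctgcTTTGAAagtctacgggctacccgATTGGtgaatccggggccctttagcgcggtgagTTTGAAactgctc
PLK1: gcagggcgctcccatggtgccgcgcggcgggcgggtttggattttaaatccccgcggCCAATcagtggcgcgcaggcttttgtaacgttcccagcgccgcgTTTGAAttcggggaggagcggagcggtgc
CDC20: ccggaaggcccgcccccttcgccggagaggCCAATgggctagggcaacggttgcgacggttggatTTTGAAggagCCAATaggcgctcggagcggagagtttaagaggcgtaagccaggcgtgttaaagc
KIF11: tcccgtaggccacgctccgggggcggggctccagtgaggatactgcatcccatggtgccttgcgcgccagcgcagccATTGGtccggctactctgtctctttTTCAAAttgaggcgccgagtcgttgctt
MKI67: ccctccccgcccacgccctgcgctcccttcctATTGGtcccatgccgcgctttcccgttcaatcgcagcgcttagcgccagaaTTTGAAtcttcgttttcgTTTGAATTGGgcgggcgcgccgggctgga

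These stretches lie on the plus strand at chr5:69167020-69167149 for CCNB1, chr10:60778348-60778477 for CDK1, chr16:23678759-23678888 for PLK1, chr1:43358851-43358980 for CDC20 and chr10:92593000-92593129 for KIF11, and on the minus strand at chr10:128126424-128126553 for MKI67. For CDK1 the table held 2 windows, and the one with more matches is shown. CCNB1 and CDK1 each had 2 CCAAT boxes whose first bases lay 32 bases apart, and CDC20 had 2 that lay 45 bases apart. No TTTGAA was found in the CCNB1 window, which says only that these letters are not in it. PLK1 and KIF11 had 1 match of each element, with TTTGAA 29 and 28 bases before the start. In MKI67 the TTTGAA at 29 bases and the ATTGG at 24 bases before the start shared letters.

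Searched on both strands, TTTGAA was present in 37 of the 57 member windows (64.9%), against 15.2% of all 35116 windows of the same length. CCAAT was present in 43 (75.4%), against 34.6% of all windows, and both elements were in 30 (52.6%), against 5.90%. At 2 or more places, CCAAT occurred in 25 member windows (43.9%), against 10.8%. Neither was found in 7 member windows (12.3%), against 56.1% of all windows. These are matches of letters, not mapped binding sites.

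The whole table gave the following frame for the members. NRAS stood between 41.4 and 60.6 TPM in the 6 siNC libraries and between 15.2 and 23.5 TPM in the 6 siQ61K libraries, so the targeted gene followed the labels without overlap. Of 10 mesenchymal markers, 9 had a mean of at least 1 TPM, and of the other lists 3 of 7 epithelial, 1 of 6 leukocyte and 0 of 4 endothelial markers did, with summed levels of 9547 to 15486, 488 to 781, 2.59 to 5.05 and 0.0506 to 1.03 TPM. Libraries of 1 group correlated at 0.966 to 0.984 across genes. On the first component of the deviations from the group means, which held 21.1% of that variance, siQ61K with poly(dA:dT) replicates 1 and 2 lay furthest out and on opposite sides. TPM keeps no record of read depth, so the depth behind each value is unknown.

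The siRNA against mutant NRAS was followed by lower levels of nearly the whole set. NRAS was measured per gene symbol, so its level does not show which copy of the gene was lowered. In the DMSO libraries, 53 of the 57 genes fell after siQ61K and 0 rose. In the poly(dA:dT) libraries 50 fell and 0 rose. Calls are at a Benjamini-Hochberg adjusted p under 0.05 in limma, fitted to log2(TPM + 1) of all 14722 genes that reached 1 TPM in at least 3 libraries, and all 57 members passed that filter. Across all genes tested, 14.8% were called lower and 16.6% higher without poly(dA:dT), and 12.6% lower and 8.71% higher with it. Without siNC DMSO replicate 1 the first pair of shares was 9.84% and 10.8%, with 51 members lower, and without siQ61K poly(dA:dT) replicate 2 the lower share with poly(dA:dT) was 7.95%, with 48 members lower. The median member changed by -1.16 on the log2 scale without poly(dA:dT), a 2.23-fold lower level, and by -0.93 with it, a 1.91-fold lower level, while the medians of all genes were 0.01 and -0.07. In these bulk libraries, fewer cells in G2 or mitosis and less of these RNAs per cell cannot be told apart.

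All 57 changes were negative in both comparisons. Without poly(dA:dT) they ran from -1.60 for HMMR to -0.24 for CDCA5, and 38 were at or below -1. With it they ran from -1.71 for HJURP to -0.22 for KIF15, and 21 were at or below -1. The 3 siQ61K values lay below all 3 siNC values for 54 members without poly(dA:dT) and for 52 with it, against 20.4% and 21.0% of all genes tested. Without adjustment, 55 and 53 members had a p under 0.05, against 42.1% and 34.8% of all genes. There were 46 members called lower in both comparisons, 7 called only without poly(dA:dT), 4 only with it, and 0 in neither. The 2 comparisons have no library in common, but they share the cell line, the siRNA and the spread estimated in 1 fit.

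The members' changes moved with the base composition of their transcripts. Their median GC content was 43.2% (34.2 to 59.6%), against 48.1% for all genes tested, and across the 57 members the change without poly(dA:dT) had a Spearman correlation of 0.56 with GC content, and that with poly(dA:dT) one of -0.56. Over all genes with a GC content these were 0.51 and -0.25. These are descriptions across genes that share the same libraries. When each library was corrected for a smooth trend on GC content and transcript length, 54 members were called lower without poly(dA:dT) (14.5% of all genes with both properties) and 51 with it (13.3%), with medians of -1.02 and -0.94. The members' correlations with GC content were then -0.08 and -0.40, so that in the second comparison a relation with GC content remained. The corrected calls held 51 of the 53 and all 50 of the original ones.

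**Figure D1:**
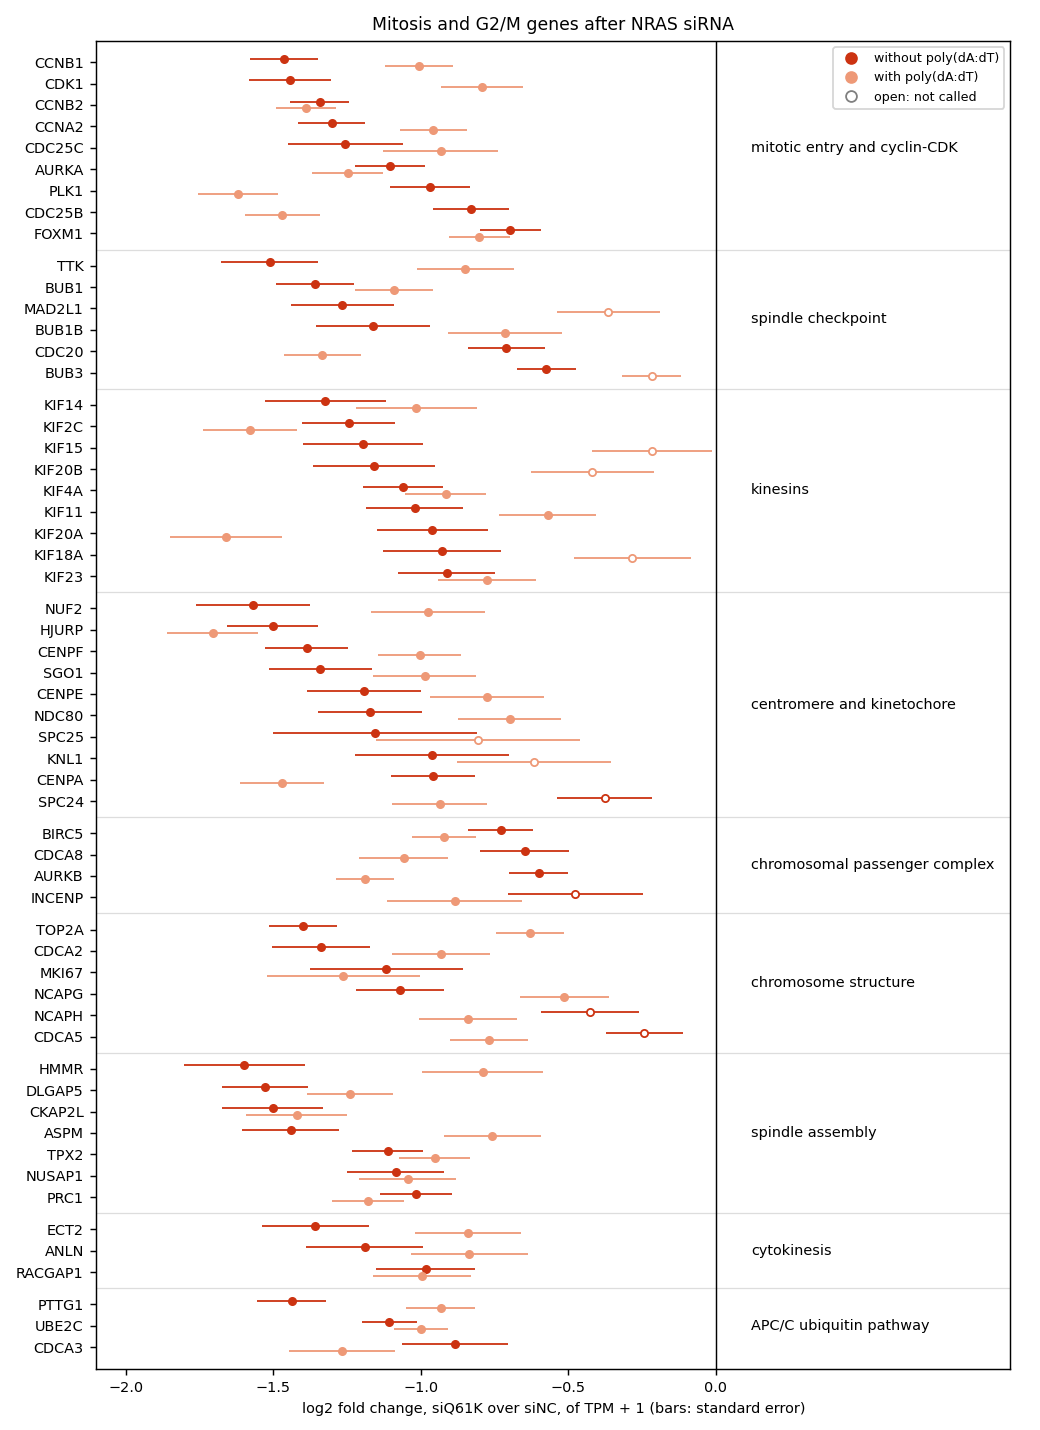
Log2 fold change of TPM + 1, siQ61K over siNC, for each of the 57 genes by role, without (dark) and with (light) poly(dA:dT). Bars are standard errors from limma and open circles were not called. Every point lies to the left of 0, between -1.71 and -0.22.

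Summed over the 57 genes, the level was 4587 ± 240 TPM (SD, n = 3) in siNC DMSO and 2087 ± 150 TPM in siQ61K DMSO, so 45.5% was left. With poly(dA:dT) the sums were 4435 ± 110 and 2276 ± 172 TPM, so 51.3% was left. The siNC libraries lay between 4310 and 4734 TPM and the siQ61K libraries between 1962 and 2463 TPM, with no overlap. In siNC DMSO the median member stood at 52.6 TPM, 14 members had a mean of at least 100 TPM and 10 had one under 20 TPM. PTTG1, CCNB1 and UBE2C were the most abundant members there, at 447 ± 65.99, 322 ± 27.7 and 316 ± 19.6 TPM (SD, n = 3). The lowest value of any member in any library was 2.955 TPM, for CDC25C.

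All 9 genes of mitotic entry were called lower in both comparisons, with medians of -1.26 and -1.01 on the log2 scale. CCNB1, cyclin B1, the partner that activates CDK1, stood at 343, 331 and 291 TPM in siNC DMSO and at 112, 115 and 120.1 TPM in siQ61K DMSO. It fell by 1.47 ± 0.11 (SE) on the log2 scale (adjusted p = 4.73e-06), the siQ61K libraries all lying far below the siNC ones. In the poly(dA:dT) libraries it stood at 269, 276 and 295 TPM after siNC and 121, 134 and 166 TPM after siQ61K, and fell by 1.01 ± 0.11 (SE) (adjusted p = 6.16e-05). CDK1, the mitotic kinase itself, stood at 188, 163 and 136 TPM in siNC DMSO and 55.9, 58.2 and 61.98 TPM in siQ61K DMSO. Its groups did not overlap, and it fell by 1.44 ± 0.14 (SE) (adjusted p = 1.88e-05). Where poly(dA:dT) was added, CDK1 stood at 140.4, 153 and 160.3 and 74.01, 85.2 and 103 TPM, again apart, and fell by 0.79 ± 0.14 (SE) (adjusted p = 0.00151).

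The other cyclins and the activating phosphatases moved the same way. CCNB2, cyclin B2, fell by 1.34 ± 0.10 (SE) without and 1.39 ± 0.10 (SE) with poly(dA:dT), from 92.4 ± 2.02 to 35.9 ± 3.49 and from 90.6 ± 1.27 to 33.99 ± 2.52 TPM (SD, n = 3). CCNA2, cyclin A2, which acts in S phase and G2, fell by 1.30 ± 0.12 (SE) and 0.96 ± 0.12 (SE). Of the phosphatases that remove inhibitory phosphates from CDK1, CDC25B fell by 0.83 ± 0.13 (SE) without and 1.47 ± 0.13 (SE) with poly(dA:dT), and CDC25C by 1.26 ± 0.20 (SE) and 0.93 ± 0.20 (SE). CDC25C was the scarcest of the 9, at 9.85 ± 1.95 TPM in siNC DMSO.

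The mitotic kinases and the transcription factor of the group fell as well. PLK1, Polo-like kinase 1, stood at 135, 163 and 157 TPM in siNC DMSO and 71.6, 75.1 and 83.7 TPM in siQ61K DMSO, and at 167, 157 and 170.4 and 61.6, 41.8 and 57.3 TPM with poly(dA:dT). It fell by 0.97 ± 0.14 (SE) without (adjusted p = 0.000287) and by 1.62 ± 0.14 (SE) with poly(dA:dT) (adjusted p = 5.22e-06), with no overlap in either. AURKA, the Aurora kinase of the centrosome and spindle poles, stood at 88.3, 93.8 and 92.4 and 39.7, 40.1 and 46.4 TPM without poly(dA:dT) and fell by 1.11 ± 0.12 (SE). With it, AURKA stood at 93.1, 79.7 and 89.4 and 33.7, 32.9 and 42.5 TPM and fell by 1.25 ± 0.12 (SE). FOXM1, the forkhead factor that activates many G2/M promoters, had the smallest change of the 9 without poly(dA:dT): it stood at 68.3, 78.2 and 74.4 and 43.4, 41.3 and 50.8 TPM and fell by 0.70 ± 0.10 (SE) (adjusted p = 0.000408). With poly(dA:dT) FOXM1 stood at 71.5, 72.3 and 67.7 and 40.5, 40.5 and 39.1 TPM and fell by 0.80 ± 0.10 (SE).

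**Figure D2:**
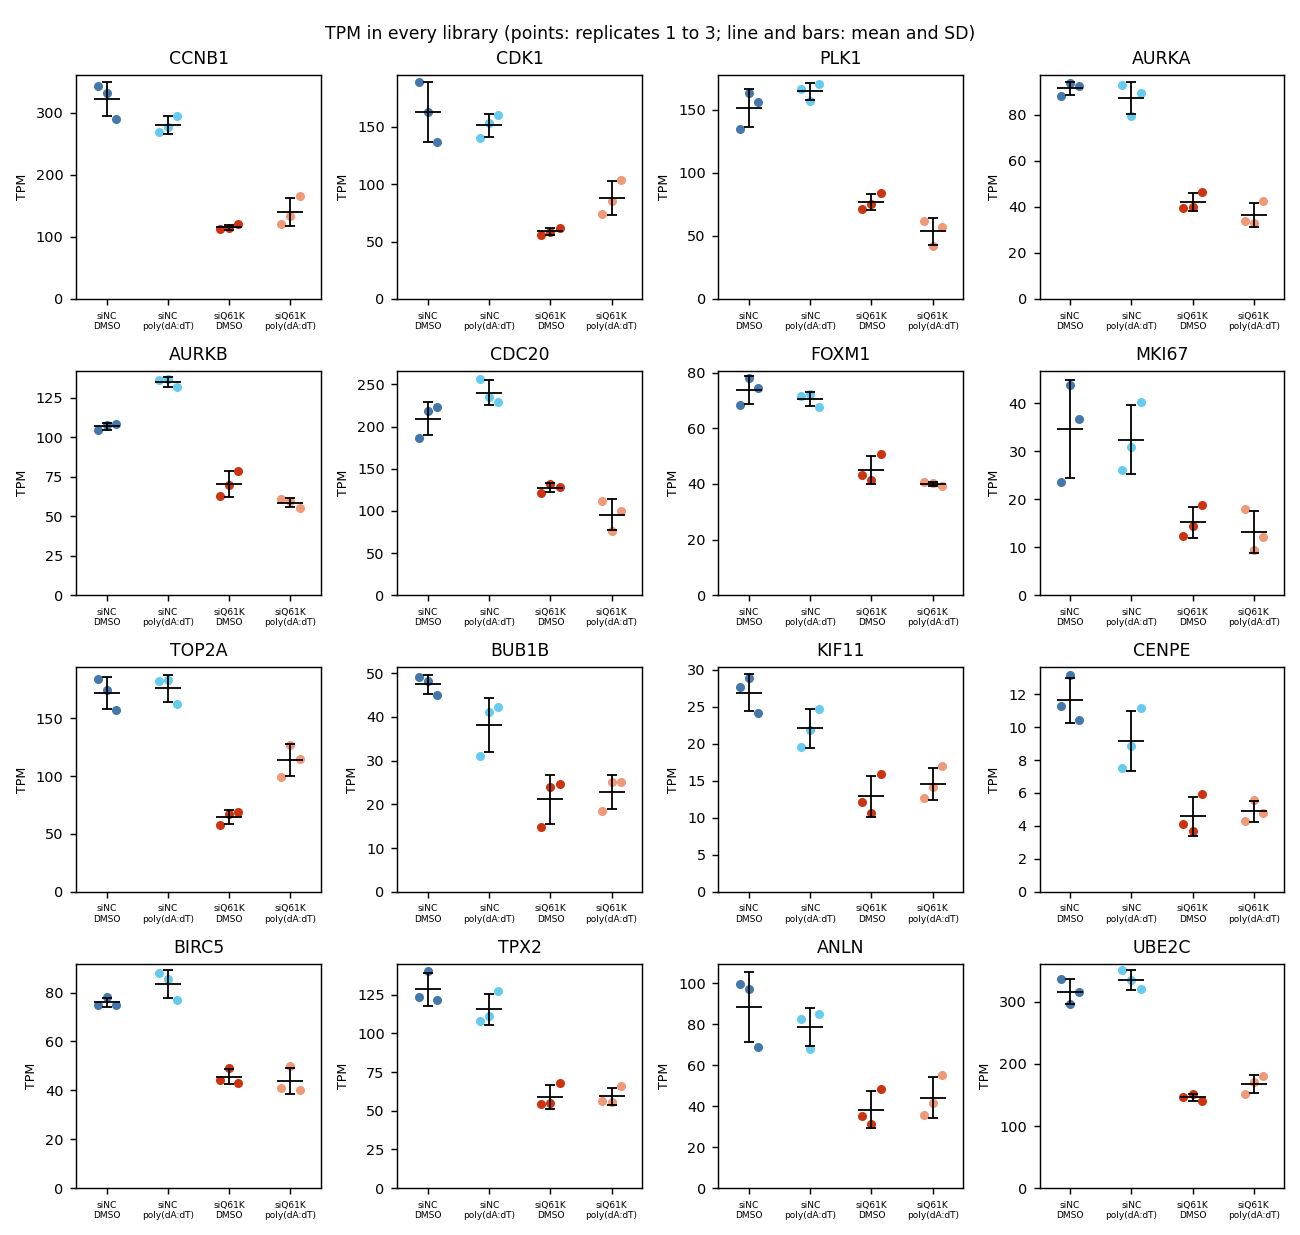
Level in TPM, on linear axes from 0, of 16 of the genes in each of the 12 libraries, by group, with the group mean and SD as lines. In every panel the siQ61K DMSO points lie below the siNC DMSO points, for example CCNB1 at 112 to 120.1 against 291 to 343 TPM.

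Among the 6 spindle checkpoint genes, 6 were called lower without poly(dA:dT) and 4 with it. TTK, the kinase that starts checkpoint signalling, stood at 47.5, 43.97 and 35.7 and 13.5, 12.4 and 16.6 TPM in the siNC and siQ61K DMSO libraries and fell by 1.51 ± 0.16 (SE) (adjusted p = 5.04e-05). In the poly(dA:dT) libraries it fell by 0.85 ± 0.16 (SE) (adjusted p = 0.00297). The scaffold kinase BUB1 fell by 1.36 ± 0.13 (SE) and 1.09 ± 0.13 (SE) in the same order. BUB1B, the checkpoint protein BUBR1, stood at 49.1, 48.2 and 44.98 and 14.7, 23.9 and 24.8 TPM without poly(dA:dT) and fell by 1.16 ± 0.19 (SE) (adjusted p = 0.000809). Where poly(dA:dT) was added, it stood at 31.1, 41.2 and 42.2 and 18.4, 25.2 and 25.1 TPM and fell by 0.71 ± 0.19 (SE) (adjusted p = 0.019). That call was lost without siNC poly(dA:dT) replicate 2 (adjusted p = 0.0697), its replicate 3 (0.0689) or siQ61K poly(dA:dT) replicate 1 (0.055).

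CDC20, the activator of the APC/C that the checkpoint holds back, stood at 187, 218 and 223 TPM in siNC DMSO and 122, 132 and 128 TPM in siQ61K DMSO. With poly(dA:dT) it stood at 257, 235 and 229 and 112, 76.00 and 99.6 TPM. The groups were apart in both settings, with a fall of 0.71 ± 0.13 (SE) (adjusted p = 0.00149) and of 1.33 ± 0.13 (SE) (adjusted p = 1.62e-05). MAD2L1, whose protein MAD2 binds and blocks CDC20, stood at 134, 116 and 99.1 and 50.6, 44.3 and 47.3 TPM without poly(dA:dT) and fell by 1.27 ± 0.17 (SE) (adjusted p = 0.000244). With it the values were 103, 108 and 106 under siNC and 60.2, 108 and 84.1 TPM under siQ61K, which overlapped, and the difference of -0.36 ± 0.17 (SE) was not called (adjusted p = 0.156). BUB3, which carries BUB1 and BUBR1 to kinetochores, fell by 0.57 ± 0.10 (SE) without poly(dA:dT), the smallest called change of the members in that comparison. In the poly(dA:dT) libraries its difference was -0.22 ± 0.10 (SE) (adjusted p = 0.144).

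All 9 kinesins were called lower without poly(dA:dT) and 6 with it. KIF11 (Eg5), the motor that pushes spindle poles apart, stood at 27.7, 28.9 and 24.2 TPM in siNC DMSO and 12.2, 10.6 and 15.96 TPM in siQ61K DMSO and fell by 1.02 ± 0.16 (SE) (adjusted p = 0.000666). Where poly(dA:dT) was added, it stood at 19.5, 21.9 and 24.8 and 12.7, 14.1 and 16.96 TPM and fell by 0.57 ± 0.16 (SE) (adjusted p = 0.0264). This call was lost without either of siNC poly(dA:dT) replicates 2 and 3 (adjusted p = 0.0694 and 0.0951) or siQ61K poly(dA:dT) replicates 1 and 2 (0.0675 and 0.0738). KIF14, a motor of cytokinesis, fell by 1.32 ± 0.21 (SE) without and 1.02 ± 0.21 (SE) with poly(dA:dT), from 14.03 ± 2.54 to 5.05 ± 1.38 TPM in the first comparison. KIF2C, the kinetochore depolymerase MCAK, stood at 51.96, 52.9 and 52.8 and 18.02, 20.3 and 27.5 TPM without poly(dA:dT) and fell by 1.24 ± 0.16 (SE). With it, KIF2C stood at 44.6, 46.5 and 49.7 and 15.97, 12.2 and 17.4 TPM and fell by 1.58 ± 0.16 (SE) (adjusted p = 2.16e-05).

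KIF20A, a motor of the central spindle, stood at 36.8, 44.7 and 47.6 and 20.9, 18.4 and 25.9 TPM without poly(dA:dT) and at 38.2, 35.5 and 42.1 and 14.3, 8.19 and 12.8 TPM with it. Its fall was 0.96 ± 0.19 (SE) in the first and 1.66 ± 0.19 (SE) in the second comparison, with no overlap in either. KIF4A, which acts on chromosome arms and the midzone, fell by 1.06 ± 0.14 (SE) and 0.92 ± 0.14 (SE), and KIF23, a subunit of centralspindlin, by 0.91 ± 0.17 (SE) and 0.78 ± 0.17 (SE). The remaining 3 kinesins were called without poly(dA:dT) and not with it. KIF15, a spindle motor that can act beside KIF11, stood at 13.2, 9.41 and 9.24 and 3.69, 4.77 and 3.65 TPM without poly(dA:dT) and fell by 1.20 ± 0.20 (SE). With it KIF15 stood at 9.17, 8.20 and 9.09 and 5.38, 7.97 and 9.55 TPM, which overlapped, and its difference was -0.22 ± 0.20 (SE) (adjusted p = 0.486). KIF18A, which damps chromosome movement at the metaphase plate, fell by 0.93 ± 0.20 (SE) without poly(dA:dT) and differed by -0.28 ± 0.20 (SE) with it. KIF20B fell by 1.16 ± 0.21 (SE) without and differed by -0.42 ± 0.21 (SE) with poly(dA:dT).

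Of the 10 centromere and kinetochore genes, 9 were called lower without poly(dA:dT) and 8 with it. HJURP, the chaperone that loads CENPA onto centromeres, stood at 67.4, 75.4 and 74.00 and 24.2, 20.5 and 30.7 TPM without and at 59.2, 66.1 and 80.8 and 20.7, 18.1 and 21.96 TPM with poly(dA:dT). It fell by 1.50 ± 0.15 (SE) (adjusted p = 3.1e-05) and 1.71 ± 0.15 (SE) (adjusted p = 9.06e-06), all siQ61K values being under every siNC value. CENPA, the centromeric histone H3 variant, fell by 0.96 ± 0.14 (SE) and 1.47 ± 0.14 (SE). CENPE, the kinetochore motor that carries chromosomes to the plate, stood at 11.3, 13.1 and 10.5 and 4.14, 3.69 and 5.93 TPM without poly(dA:dT) and fell by 1.19 ± 0.19 (SE) (adjusted p = 0.000669). With it CENPE stood at 7.52, 8.84 and 11.1 and 4.31, 5.57 and 4.81 TPM and fell by 0.78 ± 0.19 (SE) (adjusted p = 0.0122), a call lost without siNC poly(dA:dT) replicate 3 (0.0554). CENPF, a large protein of the outer kinetochore, fell by 1.39 ± 0.14 (SE) and 1.00 ± 0.14 (SE).

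The NDC80 complex, which grips the microtubule end, has 4 subunits and all are members. NUF2 stood at 69.3, 62.9 and 52.9 and 16.7, 17.8 and 26.97 TPM without poly(dA:dT) and fell by 1.57 ± 0.19 (SE) (adjusted p = 0.000114), and with it by 0.98 ± 0.19 (SE). NDC80 fell by 1.17 ± 0.18 (SE) and 0.70 ± 0.18 (SE). The second NDC80 call was lost without siNC poly(dA:dT) replicate 2 (adjusted p = 0.0506) or siQ61K poly(dA:dT) replicate 2 (0.0533). SPC25 had the widest error of the 57 in the DMSO comparison. It stood at 54.2, 39.6 and 23.9 TPM in siNC DMSO and 11.97, 15.7 and 22.2 TPM in siQ61K DMSO, and its fall of 1.16 ± 0.35 (SE) had an adjusted p of 0.0223. That call was lost without siNC DMSO replicate 1 or 2 (adjusted p = 0.104 and 0.0657), without siQ61K DMSO replicate 1 or 2 (0.0924 and 0.0564), and after the GC correction (0.0843). With poly(dA:dT) SPC25 differed by -0.81 ± 0.35 (SE) and was not called (adjusted p = 0.115).

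SPC24 was the reverse case, with 19.3, 15.9 and 23.2 TPM in siNC DMSO and 16.6, 15.4 and 12.2 TPM in siQ61K DMSO, which overlapped, and a difference of -0.38 ± 0.16 (SE) that was not called (adjusted p = 0.0933). In the poly(dA:dT) libraries it stood at 22.3, 21.9 and 20.5 and 11.9, 11.1 and 9.44 TPM, apart, and fell by 0.94 ± 0.16 (SE) (adjusted p = 0.00142). After the GC correction SPC24 was called lower without poly(dA:dT) too, by -0.55 (adjusted p = 0.0146). KNL1, the kinetochore scaffold that recruits BUB1, fell by 0.96 ± 0.26 (SE) without poly(dA:dT) (adjusted p = 0.014), a call lost without siNC DMSO replicate 1 (0.0628) or siQ61K DMSO replicate 1 (0.0551) and after the GC correction (0.0749). Where poly(dA:dT) was added, KNL1 differed by -0.61 ± 0.26 (SE) (adjusted p = 0.113). SGO1, shugoshin, which protects centromeric cohesion, fell by 1.34 ± 0.18 (SE) and 0.99 ± 0.18 (SE).

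The 4 genes of the chromosomal passenger complex, which corrects faulty attachments and directs cytokinesis, had the smallest median of the 9 roles without poly(dA:dT), -0.62, against -0.99 with it. AURKB, its kinase, stood at 105, 108 and 108 TPM in siNC DMSO and 62.6, 70.00 and 78.8 TPM in siQ61K DMSO and fell by 0.60 ± 0.10 (SE) (adjusted p = 0.000771). With poly(dA:dT) AURKB stood at 136, 137 and 132 and 61.3, 59.4 and 55.3 TPM and fell by 1.19 ± 0.10 (SE) (adjusted p = 4.73e-06), with the groups apart both times. BIRC5, survivin, stood at 75.03, 78.03 and 75.00 and 44.3, 49.03 and 43.2 TPM without and 87.97, 85.4 and 76.97 and 41.1, 49.9 and 40.1 TPM with poly(dA:dT). It fell by 0.73 ± 0.11 (SE) (adjusted p = 0.00041) and 0.92 ± 0.11 (SE) (adjusted p = 8.18e-05). CDCA8, borealin, fell by 0.65 ± 0.15 (SE) and 1.06 ± 0.15 (SE). Transcripts of the 4 genes hold 51.4 to 59.6% GC, against a member median of 43.2%, and the members' changes moved with GC content in both comparisons.

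INCENP, the scaffold that binds and activates Aurora B, stood at 34.5, 45.8 and 44.2 and 24.8, 25.9 and 39.1 TPM without poly(dA:dT). The groups overlapped through siQ61K DMSO replicate 3, and the difference of -0.48 ± 0.23 (SE) was not called (adjusted p = 0.132). After the GC correction it was -0.87 and was called (adjusted p = 0.00586). In the poly(dA:dT) libraries INCENP fell by 0.88 ± 0.23 (SE) (adjusted p = 0.0153), a call lost without siQ61K poly(dA:dT) replicate 2 (0.0555).

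Of the 6 genes of chromosome structure, 4 were called lower without poly(dA:dT) and 6 with it. TOP2A, topoisomerase II alpha, which untangles sister chromatids, stood at 184, 175 and 157 TPM in siNC DMSO and 57.8, 67.05 and 68.99 TPM in siQ61K DMSO and fell by 1.40 ± 0.12 (SE) (adjusted p = 6.95e-06). Where poly(dA:dT) was added, it stood at 182, 183 and 162 and 99.4, 127 and 114 TPM and fell by 0.63 ± 0.12 (SE) (adjusted p = 0.00211). The groups were apart in both. MKI67, the Ki-67 coat protein of mitotic chromosomes and a common marker of proliferation, stood at 23.6, 43.7 and 36.8 and 12.4, 14.5 and 18.8 TPM without and 26.2, 30.9 and 40.2 and 17.9, 9.36 and 12.2 TPM with poly(dA:dT). It fell by 1.12 ± 0.26 (SE) (adjusted p = 0.00609) and 1.26 ± 0.26 (SE) (adjusted p = 0.0042), with wider errors than TOP2A and no overlap.

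CDCA2, a chromatin-bound regulator of protein phosphatase 1, fell by 1.34 ± 0.17 (SE) and 0.93 ± 0.17 (SE). The 2 condensin I subunits among the members differed in their calls. NCAPG fell by 1.07 ± 0.15 (SE) without poly(dA:dT) and by 0.51 ± 0.15 (SE) with it (adjusted p = 0.0275). The second NCAPG call was lost without siNC poly(dA:dT) replicate 2 or 3 (adjusted p = 0.0748 and 0.104) and without siQ61K poly(dA:dT) replicate 1 or 2 (0.0701 and 0.0845). NCAPH stood at 14.1, 15.9 and 20.2 and 11.5, 10.3 and 14.9 TPM without poly(dA:dT), which overlapped, and its difference of -0.42 ± 0.17 (SE) was not called (adjusted p = 0.0679). With poly(dA:dT) NCAPH fell by 0.84 ± 0.17 (SE). CDCA5, sororin, which stabilizes cohesin, stood at 27.9, 27.7 and 35.4 and 23.2, 25.7 and 27.3 TPM without poly(dA:dT), which did not overlap, and differed by -0.24 ± 0.13 (SE) (adjusted p = 0.182). It fell by 0.77 ± 0.13 (SE) with poly(dA:dT), and after the GC correction it was called lower without it too, by -0.49 (adjusted p = 0.00279).

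The 7 spindle assembly genes were called lower in both comparisons, with medians of -1.44 and -1.04. HMMR, a hyaluronan receptor that also organizes spindle microtubules, stood at 74.8, 79.6 and 53.5 and 19.3, 21.1 and 25.8 TPM without poly(dA:dT) and fell by 1.60 ± 0.21 (SE) (adjusted p = 0.000156). With it HMMR stood at 41.3, 61.8 and 70.6 and 27.5, 33.2 and 36.7 TPM and fell by 0.79 ± 0.21 (SE) (adjusted p = 0.0155), a call lost without siNC poly(dA:dT) replicate 2 or 3 (0.0584 and 0.0676). DLGAP5, which bundles kinetochore fibres, fell by 1.53 ± 0.15 (SE) and 1.24 ± 0.15 (SE), and CKAP2L, a spindle pole protein, by 1.50 ± 0.17 (SE) and 1.42 ± 0.17 (SE). TPX2, the activator of Aurora A on the spindle, stood at 123, 141 and 121 and 54.4, 54.7 and 68.1 TPM without and 108, 111 and 127 and 56.6, 55.4 and 65.7 TPM with poly(dA:dT). It fell by 1.11 ± 0.12 (SE) (adjusted p = 4.89e-05) and 0.95 ± 0.12 (SE) (adjusted p = 0.000131), with the groups apart.

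ASPM, which acts at spindle poles, fell by 1.44 ± 0.16 (SE) and 0.76 ± 0.16 (SE). PRC1, the crosslinker of antiparallel microtubules in the midzone, fell by 1.02 ± 0.12 (SE) and 1.18 ± 0.12 (SE), and NUSAP1, a microtubule-binding protein near chromosomes, by 1.09 ± 0.16 (SE) and 1.04 ± 0.16 (SE). The 3 cytokinesis genes were called lower in both comparisons as well. ANLN, anillin, the scaffold of the contractile ring, stood at 99.8, 96.9 and 68.6 and 35.2, 31.3 and 48.5 TPM without poly(dA:dT) and fell by 1.19 ± 0.20 (SE) (adjusted p = 0.000831). With it ANLN stood at 82.4, 68.01 and 85.2 and 35.6, 41.5 and 54.99 TPM and fell by 0.84 ± 0.20 (SE) (adjusted p = 0.00961). ECT2, which activates RhoA at the cell equator, fell by 1.36 ± 0.18 (SE) and 0.84 ± 0.18 (SE), and RACGAP1, its partner in centralspindlin, by 0.98 ± 0.17 (SE) and 1.00 ± 0.17 (SE).

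The 3 genes of the APC/C ubiquitin pathway were called lower in both comparisons. UBE2C, the ubiquitin-conjugating enzyme of the APC/C, stood at 336, 297 and 316 TPM in siNC DMSO and 147, 152 and 139.8 TPM in siQ61K DMSO and fell by 1.11 ± 0.09 (SE) (adjusted p = 7.4e-06). With added poly(dA:dT), it stood at 351, 335 and 319.9 and 151, 171 and 179.9 TPM and fell by 1.00 ± 0.09 (SE) (adjusted p = 1.12e-05). The UBE2C groups were far apart in both. PTTG1, securin, the separase inhibitor that the APC/C destroys, stood at 514, 444 and 382 and 165, 168 and 156 TPM without poly(dA:dT) and fell by 1.44 ± 0.12 (SE) (adjusted p = 6.58e-06). With it PTTG1 stood at 467, 446 and 431 and 205, 238 and 263 TPM and fell by 0.93 ± 0.12 (SE) (adjusted p = 0.00013). CDCA3, which helps to degrade the mitosis inhibitor WEE1, fell by 0.89 ± 0.18 (SE) and 1.27 ± 0.18 (SE). Near-identical copies of members listed as genes of their own, such as PTTG2, were all under 1 TPM, the highest value being 0.735 for PTTG2, but how the authors' quantification divided reads between copies is not stated in the sources used here.

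**Figure D3:**
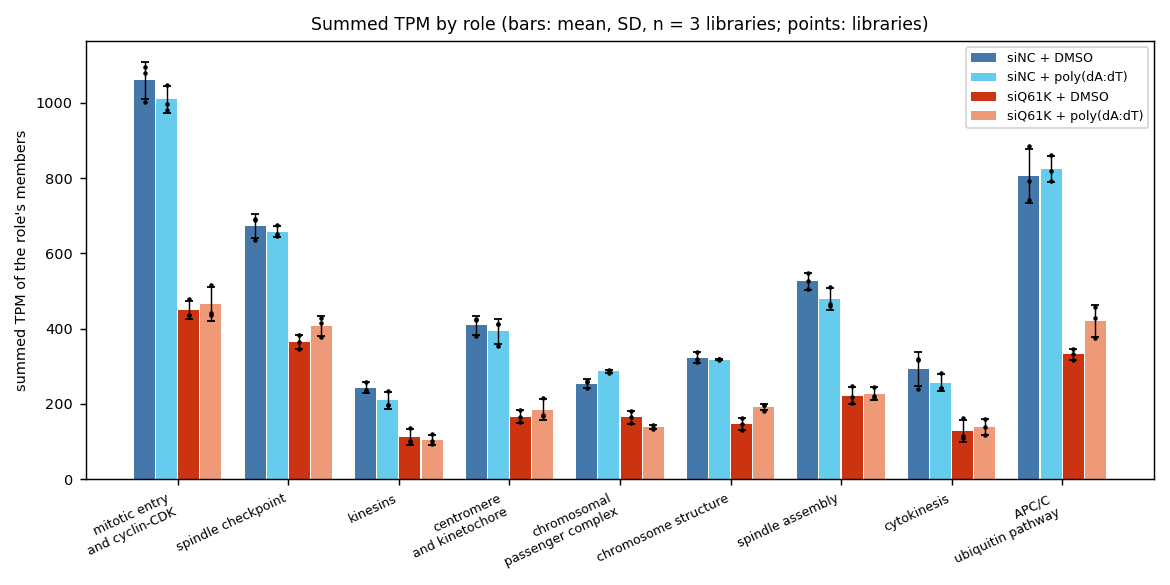
Summed TPM of the members of each of the 9 roles, with bars for the group mean, error bars for the SD (n = 3) and a point for each library. For mitotic entry the siNC sums lie between 982 and 1096 TPM and the siQ61K sums between 436 and 517 TPM.

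For the 11 members called in only 1 of the 2 knockdown comparisons, the difference between the comparisons was tested as an interaction, that is, the change with poly(dA:dT) in siQ61K cells less the change in siNC cells. It was called for MAD2L1 (0.90 ± 0.25 (SE), adjusted p = 0.0263) and KIF15 (0.98 ± 0.29 (SE), adjusted p = 0.0345). It was not called for BUB3, KIF18A, KIF20B, SPC25, KNL1, SPC24, INCENP, NCAPH or CDCA5, with adjusted p-values from 0.0666 for CDCA5 to 0.655 for SPC25. After the GC correction it was called for neither MAD2L1 (adjusted p = 0.21) nor KIF15 (0.182).

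Poly(dA:dT) under siNC was followed by no called change in the members. In limma, 0 of 57 passed, with a smallest adjusted p of 0.303, and across all genes 0.0475% were called lower and 0.0747% higher. At an unadjusted p under 0.05 there were 3 members (5.26%), against 11.1% of all genes: TTK (-0.36 ± 0.16 (SE)), DLGAP5 (-0.36 ± 0.15 (SE)) and AURKB (0.33 ± 0.10 (SE)). AURKB stood at 105, 108 and 108 TPM with DMSO and 136, 137 and 132 TPM with poly(dA:dT), without overlap. The median member changed by -0.14 against -0.07 for all genes, with 43 of 57 negative, and the members' change had a Spearman correlation of 0.66 with GC content (n = 57 genes). After the GC correction the median was 0.01, with 28 negative.

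Under siQ61K, 10 members were called after poly(dA:dT), at shares below or near those of all genes on the deposited scaling. By limma 5 members (8.77%) were lower, CDC25B, PLK1, CDC20, KIF20A and KIF2C, against 18.3% of all genes. Another 5 (8.77%) were higher, CDK1, MAD2L1, KIF15, TOP2A and PTTG1, against 6.92% of all genes. The median member changed by 0.09 and the median of all genes by -0.15. The split followed the scaling. Median-of-ratios scaling gave 3 lower (5.26%) and 16 higher members (28.1%), against 11.5% and 12.7% of all genes. Quantile normalization gave 3 (5.26%) and 17 (29.8%), against 13.0% and 11.9%, so the higher share then lay above that of all genes. The median of all genes was -0.01 under both scalings. This comparison shares its siQ61K libraries with the knockdown comparisons above. The members' change had a Spearman correlation of -0.76 with GC content (n = 57 genes), the opposite sign to that under siNC, and all genes one of -0.57.

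TOP2A rose from 57.8, 67.05 and 68.99 to 99.4, 127 and 114 TPM, every poly(dA:dT) library being higher, by 0.80 ± 0.12 (SE) on the log2 scale (adjusted p = 0.00183), and its transcript has a GC content of 39.1%. MAD2L1 rose from 50.6, 44.3 and 47.3 to 60.2, 108 and 84.1 TPM, by 0.78 ± 0.17 (SE) (adjusted p = 0.00868). KIF15 rose from 3.69, 4.77 and 3.65 to 5.38, 7.97 and 9.55 TPM, by 0.75 ± 0.20 (SE) (adjusted p = 0.0185). These 3 kept their call after the GC correction, with changes of 0.77, 0.74 and 0.74 (adjusted p = 0.0093, 0.0319 and 0.0469). PTTG1 rose from 165, 168 and 156 to 205, 238 and 263 TPM, by 0.52 ± 0.12 (SE), and also kept its call (0.51, adjusted p = 0.0238). CDK1 rose from 55.9, 58.2 and 61.98 to 74.01, 85.2 and 103 TPM, by 0.56 ± 0.14 (SE) (adjusted p = 0.013), and did not keep it (0.21, adjusted p = 0.0819).

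Among the lower genes, KIF20A fell from 20.9, 18.4 and 25.9 to 14.3, 8.19 and 12.8 TPM, by 0.85 ± 0.19 (SE) (adjusted p = 0.00864), and was still called after the GC correction (-0.71, adjusted p = 0.0177). PLK1 fell by 0.53 ± 0.14 (SE) (adjusted p = 0.0156) and CDC25B by 0.54 ± 0.13 (SE) (adjusted p = 0.0106), from transcripts of 57.1% and 59.3% GC. After the correction their changes were -0.04 and -0.03 and neither was called. CDC20 fell by 0.42 ± 0.13 (SE) and KIF2C by 0.50 ± 0.16 (SE), with -0.11 and -0.31 after it. The correction left 2 members lower, KIF20A and CENPA (3.34% of all genes), and 5 higher, MAD2L1, KIF15, TOP2A, PTTG1 and ASPM (5.41%).

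Several of these calls did not hold when 1 library was left out, which also leaves fewer libraries to estimate the change. Of the 10 calls, 5 held whichever library was left out: CDC25B, MAD2L1, KIF20A, TOP2A and PTTG1. CDK1 was lost without replicate 3 of siQ61K poly(dA:dT) (adjusted p = 0.0616), and PLK1 without replicate 3 of siQ61K DMSO (0.059) or replicate 2 of siQ61K poly(dA:dT) (0.0619). KIF15 was lost without any of siQ61K DMSO replicates 1 and 3 or of siQ61K poly(dA:dT) replicates 2 and 3 (adjusted p = 0.0573 to 0.0867). CDC20 was lost without any of 5 siQ61K libraries (adjusted p = 0.0594 to 0.127), the exception being siQ61K poly(dA:dT) replicate 1. KIF2C was lost without any of siNC DMSO replicate 2, siNC poly(dA:dT) replicate 2, replicates 2 and 3 of siQ61K DMSO and replicate 2 of siQ61K poly(dA:dT) (adjusted p = 0.0518 to 0.154). With replicate 3 of siQ61K DMSO and replicate 2 of siQ61K poly(dA:dT) both left out, only TOP2A was called. That pair is not the 2 libraries furthest out on the first component of the deviations, as siQ61K poly(dA:dT) replicate 1 stayed in.

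**Figure D4:**
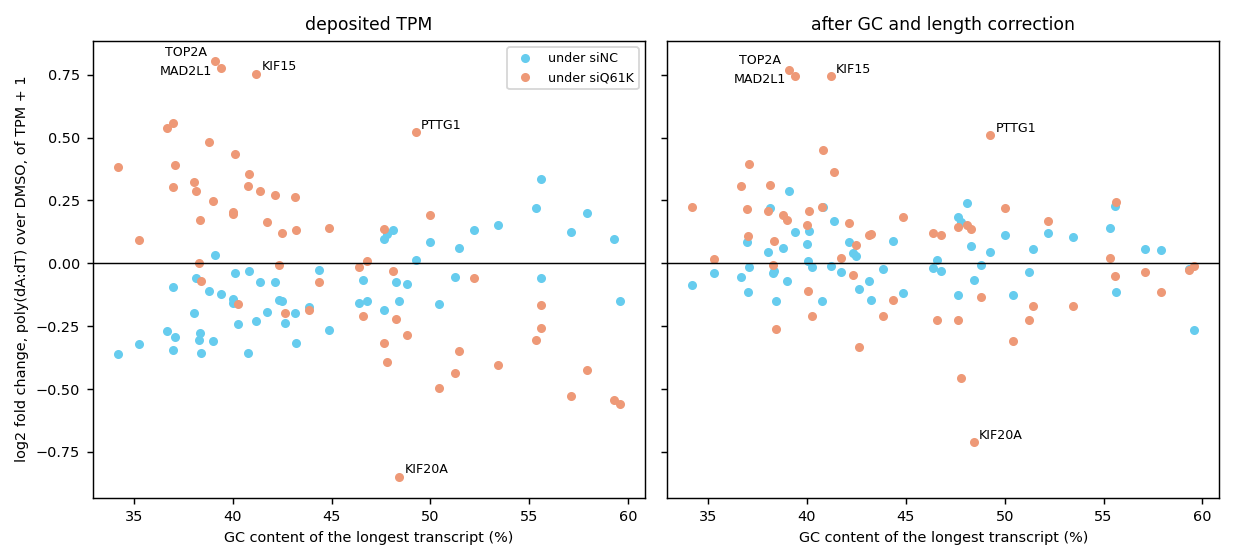
Log2 fold change of TPM + 1, poly(dA:dT) over DMSO, of the 57 genes against the GC content of the longest transcript, under siNC and under siQ61K, before and after the GC and length correction. Before it the Spearman correlations are 0.66 and -0.76, and after it 0.10 and -0.40.

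The interaction was called for 8 members, 4 in each direction (7.02%), shares below or near those of all genes on the deposited scaling. It was lower for CDC25B (-0.64 ± 0.18 (SE)), PLK1 (-0.65 ± 0.19 (SE)), CDC20 (-0.62 ± 0.18 (SE)) and AURKB (-0.59 ± 0.14 (SE)), against 12.1% of all genes. It was higher for CDK1 (0.65 ± 0.19 (SE)), MAD2L1, KIF15 and TOP2A (0.77 ± 0.16 (SE)), against 6.00% of all genes. Under median-of-ratios scaling the split was 3 lower (5.26%) and 10 higher (17.5%), against 10.2% and 9.19% of all genes. CDC20 was then no longer called (adjusted p = 0.0557). On the deposited scaling the adjusted p was 0.0174 for AURKB and 0.0122 for TOP2A, the 2 whose calls held whichever 1 library was left out. Without replicate 3 of siQ61K DMSO and replicate 2 of siQ61K poly(dA:dT) together, TOP2A alone was called (adjusted p = 0.048), AURKB having an adjusted p of 0.0573. The other 6 were all lost without any 1 of siNC DMSO replicates 1 and 2, siNC poly(dA:dT) replicates 1 and 2 and siQ61K poly(dA:dT) replicates 2 and 3, with adjusted p from 0.0501 for MAD2L1 to 0.0988 for CDK1, and in part without others. The interaction had a Spearman correlation of -0.82 with GC content over the 57 members and -0.66 over all genes. After the GC correction 0 members were called by limma (0.671% of all genes lower and 1.41% higher), with 9 at an unadjusted p under 0.05, against 20.3% of all genes, and a smallest adjusted p of 0.0805.

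Other genes of cell division gave a range of counts. For every list, the share of all genes tested was 14.8% lower and 16.6% higher without poly(dA:dT), and 12.6% and 8.71% with it. Of 27 tested late cell-cycle genes outside the members, 22 fell without poly(dA:dT) and 25 with it, and 0 rose. NEK2, a centrosome kinase, fell by 1.63 and 1.20 on the log2 scale, HMGB2, a chromatin protein, by 1.56 and 1.11, and TROAP, a spindle protein, by 0.71 and 1.79. Of 28 further kinetochore genes, 21 fell without and 4 with poly(dA:dT), the second count being near the share of all genes. These became 18 and 11 after the GC correction, against 14.5% and 13.3% of all genes. Among 15 condensin and cohesin genes 9 and 8 fell, among 8 centriole duplication genes 6 and 3, and among 33 DNA replication genes 18 and 16, with 0 higher in each.

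Of 14 core subunits of the APC/C, 4 fell and 1 rose without poly(dA:dT), and 1 fell and 2 rose with it, with medians of -0.25 and 0.08 against the members' -1.16 and -0.93. Of 15 genes listed as B-MYB, MuvB and DREAM complex regulators, among them E2F1, E2F7 and E2F8, 6 fell without and 7 with poly(dA:dT). MYBL2, which encodes B-MYB, stood at 24.0 ± 2.88 and 26.1 ± 0.77 TPM (SD, n = 3) in siNC and siQ61K DMSO and was not called (0.12 ± 0.14 (SE), adjusted p = 0.559). Where poly(dA:dT) was added, it stood at 27.0 ± 2.41 and 16.5 ± 2.99 TPM and fell by 0.69 ± 0.14 (SE) (adjusted p = 0.00434). After the GC correction MYBL2 was lower in both, by -0.29 and -0.44. Of 12 genes that control mitotic entry, 4 fell and 1 rose in each comparison, CDKN1A being the one that rose without and CDC14A with poly(dA:dT), with medians of -0.03 and -0.28. ARPP19, which once phosphorylated inhibits the phosphatase PP2A-B55, fell by 0.92 and 0.56, and ENSA, a related inhibitor, differed by -0.20 without poly(dA:dT) (not called) and fell by 0.78 with it. CDKN1A, the CDK inhibitor p21, stood at 235 ± 11.9 and 289 ± 13.5 TPM without and 254 ± 9.38 and 203 ± 23.5 TPM with poly(dA:dT). It rose by 0.29 in the first comparison (adjusted p = 0.0346) and fell by 0.33 in the second (adjusted p = 0.0282), and after the GC correction was called in neither (-0.03 and -0.14).

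The 34 genes with TTTGAA had medians of -1.17 without and -0.90 with poly(dA:dT), and the 13 with a window and no TTTGAA had -1.19 and -0.99. Only these exact letters were searched, at any place in the window and on either strand. The split therefore does not show which genes have a working CHR and which lack one. CCNB1, which belongs to the 13, was among the larger falls without poly(dA:dT), at -1.47. The 28 genes with both elements in 1 window had medians of -1.16 and -0.97. The 10 genes without a window are in neither group, and the difference between the groups was not tested.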

How the data were processed

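Per gene symbol, the authors deposited TPM, which scales a relative level for transcript length and library total. Salmon 0.8.0 and hg19 are named per the submitters' processing notes, and no source used here states the annotation or how transcripts were summed to genes. Columns carry short names that were read as siRNA and agent from the sample titles. Of the 56227 rows, 984 shared 58 symbols and were left out. Values were fitted as log2(TPM + 1) in 1 model of 4 groups with limma 3.58.1 under R 4.3.3, using a variance trend, for the 14722 genes that reached 1 TPM in 3 or more of 12 libraries, with Benjamini-Hochberg adjustment over all of them. A fold change on this scale understates that of low genes. The fit was tested on simulated data with independent noise for each gene and library. Such data hold no GC trend, so that test says nothing about calls that follow GC content. The GC and length correction was a lowess per library (span 0.3) on the longest GENCODE transcript, known for 14299 genes (97.13%). It was planned because earlier results of these data showed such a trend. Alternatives covered the pseudocount, filters, scaling, variance modelling, library weights, a replicate block, and leaving out libraries. The members, the other lists, the alternatives and the rule for named genes (16 set genes, the largest called changes of each role and list, and members that lacked a call) were chosen with earlier results of these data known. An exact permutation test of 3 libraries against 3 cannot go below p = 0.1, so it was not used.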

Additional observations from a re-analysis of the deposited data

Results flagged for a closer look

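The poly(dA:dT) response differed between siQ61K and siNC cells for 8 members by the interaction test in limma, at an adjusted p under 0.05. With 4 lower and 4 higher (7.02% each), against 12.1% and 6.00% of all genes, these shares are below or near the background on the deposited scaling. The log2 difference, siQ61K response minus siNC response, was 0.65 for CDK1, -0.64 for CDC25B, -0.65 for PLK1, 0.90 for MAD2L1, -0.62 for CDC20, 0.98 for KIF15, -0.59 for AURKB and 0.77 for TOP2A. Of these, CDC25B, PLK1, CDC20 and AURKB have GC-rich transcripts (55.6 to 59.3%), and CDK1, MAD2L1, KIF15 and TOP2A have GC-poor ones (37.0 to 41.2%). After the GC and length correction the same 8 differences ran from -0.28 for AURKB to 0.75 for KIF15, and none was called.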

How the results depend on the processing

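Under every alternative run, all called members of both knockdown comparisons kept a negative sign and 0 members rose. A pseudocount of 5 moved the medians to -0.97 without and -0.78 with poly(dA:dT), and the GC correction the first to -1.02, with or without the block. Leaving out libraries gave 51 to 55 members lower (median -1.25 to -1.06) without and 45 to 51 (median -1.03 to -0.90) with poly(dA:dT). Across these fits 9.84% to 16.7% and 7.95% to 16.4% of all genes were lower. For poly(dA:dT) under siNC, library weights gave 1 member higher (1.75%), near the 1.17% of all genes. The GC correction turned the median from -0.14 to 0.0099 (also with the block). Leaving out libraries gave 0 calls with medians of -0.20 to -0.08, against at most 0.102% of all genes lower and 0.143% higher.

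Under siQ61K, 5 members were lower and 5 higher. The lower count became 3 with no filter (5.74% of all genes), no variance trend (16.4%), median-of-ratios scaling (11.5%) or quantile normalization (13%). It became 2 with only the groups compared (10.8%) or the GC correction (3.34%), and 1 with the correction and the block (2.81%). The higher count became 16, 17 and 18 with median-of-ratios scaling, quantile normalization and library weights. These were 28.1%, 29.8% and 31.6% of members, against 12.7%, 11.9% and 12.5% of all genes. The median moved from 0.09 to 0.23, 0.25 and 0.21 in the same order. Leaving out libraries gave 0 to 7 lower, 1 to 12 higher and medians of -0.038 to 0.16. The lowest counts came without both replicate 3 of siQ61K DMSO and replicate 2 of siQ61K poly(dA:dT), the highest without siQ61K poly(dA:dT) replicate 1. Between them the share of all genes went from 0.299% to 22.2% lower (44 to 3270 genes) and from 0.679% to 9.18% higher.

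For the interaction, 4 members were lower and 4 higher. The lower count became 1 with no filter (2.35% of all genes) or no variance trend (8.88%) and 8 with library weights (20.4%). It became 0 with the GC correction (0.671%), also with the block (0.441%). The higher count became 1 with no filter (1.11% of all genes) and 8 with a mean of at least 5 TPM (10.1%). It became 10 and 12 with the 2 scalings (17.5% and 21.1% of members, against 9.19% and 9.69%). With library weights it became 24 (42.1% of members, against 17.5%). It became 2 with no variance trend (3.66%) or the replicate block (4.63%), and 0 with the GC correction (1.41%, or 1% with the block). The median moved from 0.29 to 0.46 with library weights and to 0.0742 with the GC correction, with or without the block. Leaving out libraries gave 0 to 6 lower, with 6 without siNC DMSO replicate 3 (13.2% of all genes) or siQ61K poly(dA:dT) replicate 1 (17.4%). It gave 1 to 13 higher (highest without siQ61K poly(dA:dT) replicate 1) and medians of 0.18 to 0.35. Across these fits 1.97% to 17.4% of all genes were lower and 1.39% to 8.96% higher. The GC correction rescales each library on GC content and length and tests fewer genes; the cause of the other changes was not tested.

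Median-of-ratios scaling changed the split of all genes with poly(dA:dT) after siQ61K from 1862 lower and 1282 higher to 1623 and 1710, and that of the poly(dA:dT) response under siQ61K from 2693 and 1019 to 1688 and 1871. Same-numbered libraries correlated at -0.26 to 0.23 in their deviations from the group means, and 4 of 12 correlated best with their own number, so the numbers were not taken to pair the libraries. With a replicate block, 53 and 50 members were lower in the knockdown comparisons, against 14% and 12% of all genes. Each group has 3 libraries, depth is unknown, and small changes of members near the lowest levels are the least certain.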
